A study of Rattus norvegicus and Mus musculus with 61 samples.

Results

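Ion channel subunits set how cortical neurons fire, and their transcripts were examined here in the injured parieto-occipital cortex of mice and rats. The members were all genes whose single annotated symbol begins with Kcn (potassium channels and their partners), with Scn and a digit (voltage-gated sodium channels) or with Cacn (voltage-gated calcium channels), with the probe set of highest mean signal standing for each gene. The mouse array held 60 such genes among 8251 named genes, and 38 of them passed a filter on low signal, as did 6352 genes in all. The rat array held 78 among 4736, and 65 passed, as did 4089 genes in all. In total 89 channel genes were on at least 1 array, 49 on both, and 24 passed the filter on both.

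Voltage-gated sodium channels carry the upstroke of the action potential, and voltage-gated calcium channels turn depolarization into transmitter release and intracellular signalling. Potassium channels repolarize the membrane and set its resting potential, through voltage-gated (Kcna to Kcnd, Kcnh, Kcnq, Kcns), calcium- or sodium-activated (Kcnma1, Kcnn, Kcnt), inwardly rectifying (Kcnj) and two-pore (Kcnk) pores. Partner subunits, such as the beta subunits Kcnab and Cacnb and the alpha2-delta subunits Cacna2d, move the pores to the membrane and tune their gating.

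The mouse samples came from male C57BL/6 mice of 20 to 25 g under isoflurane and oxygen, and each array held RNA of cortex pooled from 3 animals. Injury was a moderate controlled cortical impact by a pneumatic piston at 6 m/s with 1.5 mm of deformation, and a 4 mm disk around the impact site, contusion included, was taken 4, 8, 24 or 72 h later (3 arrays at each time), beside 2 time-matched arrays of sham surgery and 2 arrays of naive mice. The rats were male Sprague-Dawley animals of 400 ± 25 g under sodium pentobarbital, and each array held 1 rat. They received a fluid-percussion pulse of 2.5 atm, and a 7 mm disk was taken at 30 min (5 arrays), or at 4, 8, 24 or 72 h or 21 d (3 arrays each). Rat shams numbered 4 arrays at 30 min, 4 at 4 h and 2 at each other time, beside 3 naive rats. Strain, injury device, anaesthetic, disk size and pooling all differed between species, so the species were analysed apart and their difference cannot be told apart from these. The disks are bulk tissue, in which fewer cells of a type and less RNA per cell cannot be told apart.

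Values are linear array intensities, and differences are log2 injury minus log2 sham, each with its standard error (SE). A gene is said to have risen or fallen where limma, fitted across all genes of a species, gave a Benjamini-Hochberg adjusted p below 0.05. The mouse arrays were alike, with median correlations of 0.941 or more. On the rat arrays, 2 shams of 4 h (median correlations 0.608 and 0.731), 1 injured rat of 30 min (0.798) and 1 sham of 30 min (0.83) stood apart from the rest, which lay at 0.864 or above. Calls of channel genes that rest on those 4 rat arrays, or on the spread they add, are given with and without them. No neuronal marker was at the signal floor on all arrays of any group in either species.

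In the mouse cortex a small set of neuronal channel genes fell. Over the 4 times together, 5 of 38 members fell and 1 rose (15.8%, beside 23.3% of all genes tested; falls 13.2% beside 10.3%, and rises 2.63% beside 13%), so the count alone says nothing particular to channel genes. The 5 were Cacna2d1, the alpha2-delta subunit that binds gabapentin, Kcnma1, the pore of the large-conductance calcium-activated potassium channel, Scn1a, a sodium pore prominent in inhibitory interneurons, Kcnd2, the A-type potassium pore of dendrites, and Kcnj9, a G-protein-gated inward rectifier. The gene that rose was Cacna1g, a low-voltage-activated T-type calcium pore. At single times no member was called at 4 h (0.866% of all genes; 4 members, and 9.07% of all genes, had an unadjusted p below 0.05). At 8 h 2 fell, as did 3.27% of all genes (8.19% called either way). At 24 h 1 rose, as did 6.19% (10.7% either way). At 72 h 3 fell and 1 rose, as did 5.68% and 9.86% (15.5% in all).

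**Figure D1:**
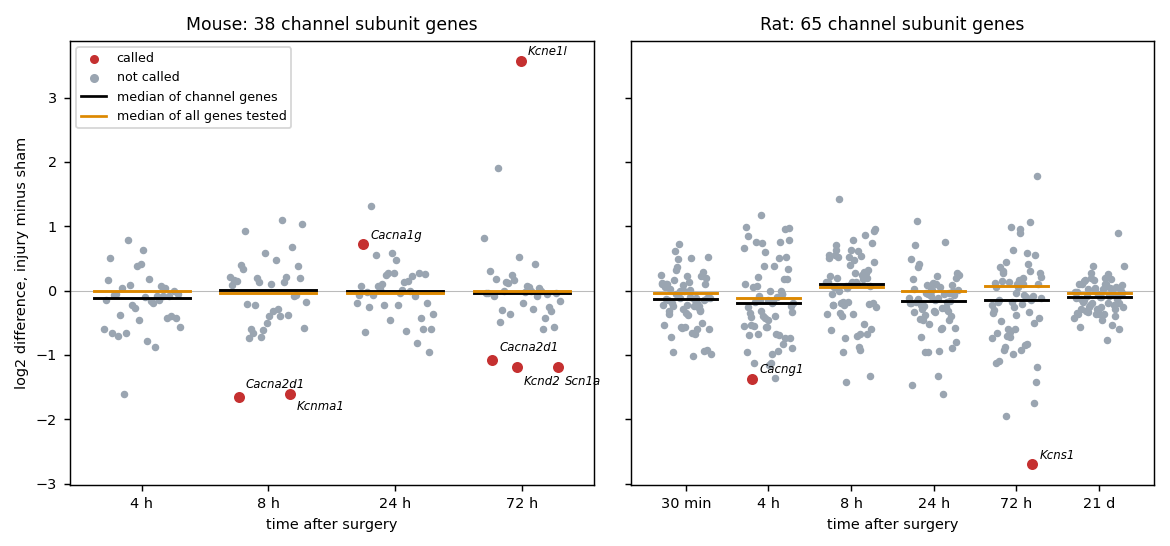
Log2 difference between injury and time-matched sham (vertical axis) for each channel gene past the filter, by time after surgery, in the mouse (left, 38 genes) and the rat (right, 65 genes). Each point is 1 gene, red points were called by limma at an adjusted p below 0.05, and bars mark medians; in the rat at 72 h the median of channel genes was -0.15 and that of all genes 0.07.

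Cacna2d1 fell at 8 h and 72 h. At 8 h the injured arrays read 194, 120 and 219, and the shams 420 and 697. The groups did not overlap, and no uninjured mouse array read below 399. The log2 difference was -1.65 ± 0.34 (SE; 3 against 2 arrays), a level 3.15-fold lower, with a limma adjusted p of 0.00383; without the sham of 8 h labelled 1c that p was 0.0798. At 72 h the injured arrays read 530, 339 and 309 against shams of 818 and 797. That difference was -1.08 ± 0.34 (limma adjusted p = 0.0358), and 8 of 13 alternatives lost the call, among them the title letter as a block (0.118), leaving out either 72 h sham (0.0957 and 0.154) and fitting only the 72 h arrays (0.0525). At 4 h (-0.66 ± 0.34) and 24 h (-0.65 ± 0.34) the estimates lay below 0 without passing the test. The mean over times was -1.01 ± 0.17 (limma adjusted p = 0.000178), and it kept its call under every one of the 25 alternatives run.

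Kcnma1 fell at 8 h with Cacna2d1. The injured arrays read 2725, 1230 and 2335, all below the shams at 6900 and 5313. The difference was -1.61 ± 0.32, or 3.05-fold lower (limma adjusted p = 0.00343); without the sham of 8 h labelled 1b it was not called (0.0789). At 24 h the injured arrays (3490, 2346 and 4130) again lay below the shams (5383 and 6041), with -0.82 ± 0.32 and an adjusted p of 0.123. At 72 h the groups overlapped, because 1 sham read 2794, the lowest of all uninjured mouse arrays. A naive array read 2981. Injured arrays of 24 h thus overlapped the range of all uninjured arrays, and the 8 h reading of 2725 lay just below it. The mean over times was -0.78 ± 0.16 (limma adjusted p = 0.00141) and was called under all 25 alternatives.

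The neuronal marker list was lower at 8 h by a small margin: its 11 genes summed to 68459 to 72324 on injured arrays and 73235 to 75093 on shams, and 0 of 11 was called. Of 7 astrocyte markers 2 fell at 8 h, Aqp4 (-2.08) and Glul (-0.88), and none rose, with a list median of 0.20. Of 12 microglia and macrophage markers 5 rose and none fell. The part of these cell types in the falls of Cacna2d1 and Kcnma1 was not tested.

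Scn1a fell at 72 h. Its injured arrays read 1695, 2446 and 1314, and the shams 3572 and 4449. All 3 injured arrays lay below all 10 uninjured mouse arrays, of which the lowest read 2950. The difference was -1.18 ± 0.21, or 2.27-fold lower (limma adjusted p = 0.000485). At 8 h (-0.58 ± 0.21) and 24 h (-0.59 ± 0.21) injured arrays also lay below their shams, with adjusted p of 0.0906 and 0.0757. At 4 h the difference was -0.05 ± 0.21. The change from 4 h to 72 h was itself called (-1.13 ± 0.29, limma adjusted p = 0.0253), although 9 of 16 alternatives lost that call, leaving out either 4 h sham among them (0.0601 and 0.119). This probe set carries the suffix s, which marks probes shared by several transcripts. The other Scn1a probe set gave -0.72 ± 0.26 at 72 h (adjusted p = 0.0778 in a fit over all probe sets) and -0.62 ± 0.13 over the times (0.00208).

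Kcnd2 was called at 72 h and at no other single time. Over all uninjured mouse arrays its lowest reading was 879, on a naive one. At 72 h the injured arrays read 766, 869 and 727, the highest of them close to that value. The 72 h shams read 1437 and 2228, with no overlap. The higher sham, labelled 1d, was the highest of all uninjured mouse arrays for Kcnd2. The difference was -1.19 ± 0.27, or 2.28-fold lower (limma adjusted p = 0.00446); without the higher sham it was 0.119. At 4 h the estimate was 0.39 ± 0.27, and the 72 h effect lay below the 4 h effect by a called margin (-1.58 ± 0.38, limma adjusted p = 0.0156; 0.0523 and 0.0762 without either 4 h sham). A second Kcnd2 probe set gave -0.73 ± 0.47 at 72 h (adjusted p = 0.352) and -0.40 ± 0.66 for the change from 4 h, neither called. The fall of Kcnd2 over the times lost its call under 3 of 26 alternatives, the second probe set among them (limma adjusted p = 0.186). Both 4 h shams also carried pituitary transcripts, whose 7 genes summed to 18660 and 20952 there and to at most 2698 on any other mouse array, and the part of that in the 4 h values was not tested. In this test of changing effects 2 of 38 members were called, both lower at 72 h, as were 5.23% of all genes (1.62% lower).

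Kcnj9 gave the weakest of the falls, with -0.38 ± 0.13 over the times (limma adjusted p = 0.0414), and it lost its call under 17 of 26 alternatives. Cacna1g rose at 24 h, where injured arrays read 868, 630 and 866 and the shams 468 and 481. The groups did not overlap, and the difference was 0.72 ± 0.22, or 1.64-fold (limma adjusted p = 0.0458), but 8 of 13 alternatives lost that call. Injured arrays of 4 h (697, 667 and 683) also lay above their shams (421 and 549), with 0.50 ± 0.22 and an adjusted p of 0.506. The mean over times was 0.42 ± 0.11 (limma adjusted p = 0.0096).

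Kcne1l, an older symbol of the small single-pass partner subunit Kcne5, rose at 72 h from near the signal floor of 24.1. Its injured arrays read 280, 328 and 625 and the shams 28.6 and 36.9. The difference was 3.57 ± 0.88 (limma adjusted p = 0.00928), with its size set by shams close to the floor. The gene was above the filter's intensity of 194 on 4 arrays, of which 3 were these injured ones, so it entered the test through the group where it was high, and its rise is no support for a change in channel genes. The call was lost without the sham labelled 1d (0.0511) and with the shams averaged (0.0592). Single uninjured arrays elsewhere read 207 (sham, 8 h) and 150 (naive), so the gap to the other uninjured mice was smaller than to the 72 h shams. Cacng1, a gamma subunit best known from skeletal muscle, had the next highest difference at 72 h (1.91 ± 0.70) and was not called (adjusted p = 0.0748).

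**Figure D2:**
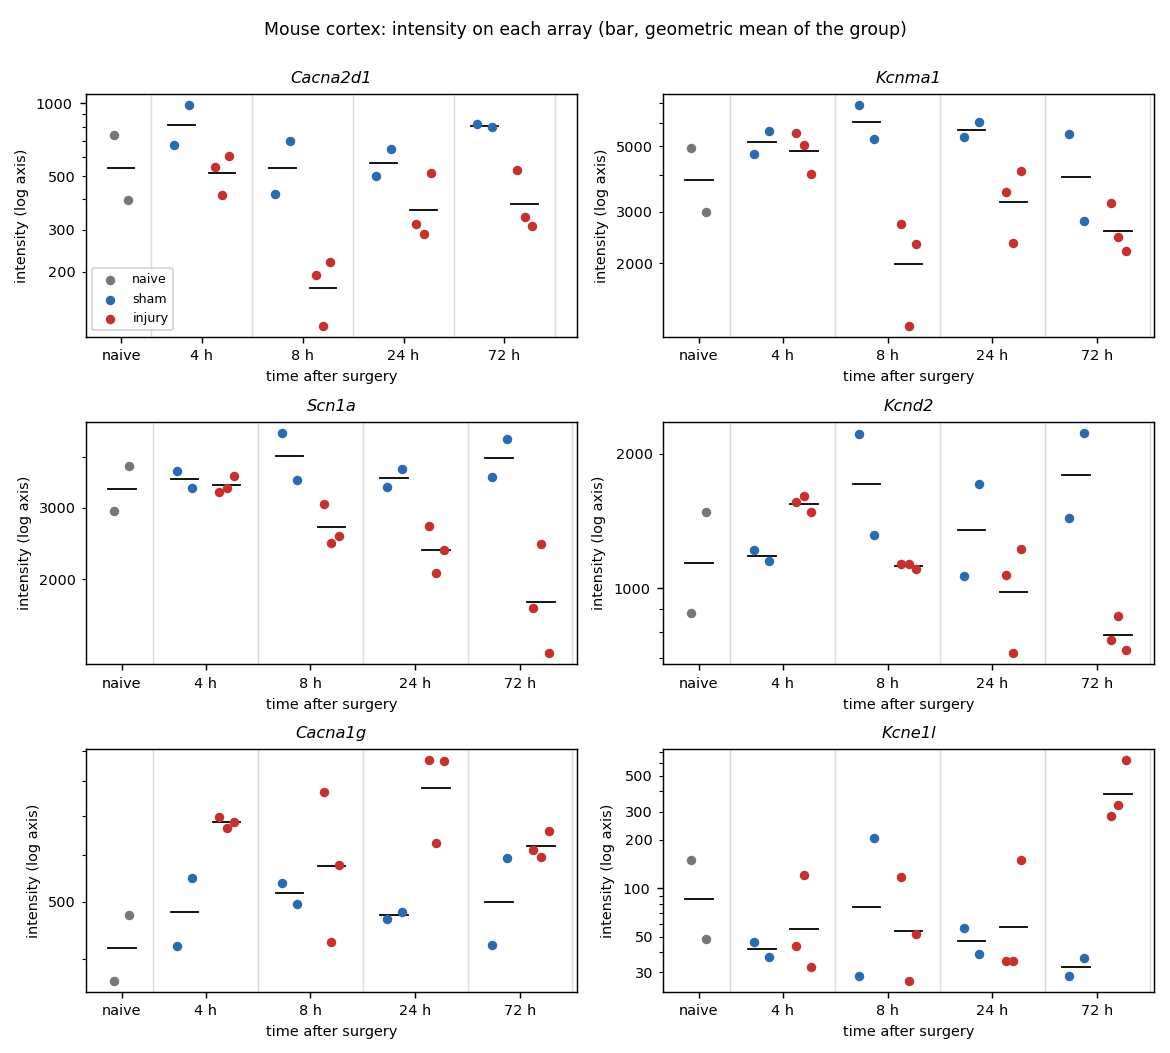
Intensity (log axis) of 6 mouse channel genes on each array, by time after surgery, with naive arrays at the left of each panel; points are arrays of 3 pooled mice and bars are group geometric means. Cacna2d1 and Kcnma1 are lowest at 8 h, Scn1a and Kcnd2 at 72 h, and Kcne1l is high in the 3 injured arrays of 72 h.

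At 72 h the mouse neuronal list lay within its sham range while immune transcripts were high. The 11 neuronal markers summed to 65052 to 70030 on injured arrays, inside the sham range of 61880 to 80495, and 1 of 11 (Syp) fell. Of 12 microglia and macrophage markers 11 rose, and the 13 on the array summed to 47400 to 60248 against 12063 to 12575. Among 9 markers of inhibitory neurons Calb1 (-1.57) and Calb2 (-1.67) fell and Npy (1.36) rose. The part of these in the falls of Scn1a and Kcnd2 was not tested.

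No other mouse member was called, though some estimates were as large as the called ones. Kcna2, a delayed rectifier of axons, gave -1.61 ± 0.69 at 4 h (259, 55.1 and 64.7 after injury against 326 and 271; limma adjusted p = 0.474), the two-pore channel Kcnk1 1.09 ± 0.46 at 8 h (0.167) and the P/Q-type calcium pore Cacna1a 0.82 ± 0.48 at 72 h (0.294). For the class leaders by signal, the 72 h differences were -0.30 ± 0.34 for the delayed rectifier Kcna1, -0.37 ± 0.13 for the beta subunit Kcnab2, 0.06 ± 0.21 for the inward rectifier Kcnj4, -0.08 ± 0.14 for the two-pore channel Kcnk2, -0.03 ± 0.25 for the L-type calcium pore Cacna1c and -0.09 ± 0.16 for the alpha2-delta subunit Cacna2d3. None of these was called, and Kcnab2 came nearest (limma adjusted p = 0.0616). The sodium pore Scn8a, found at the axon initial segment, gave -0.16 ± 0.38. Its injured arrays read 675, 895 and 567, and the 72 h shams 1529 and 397. The sham reading 397, labelled 1d, lay far below every other uninjured mouse array, of which the lowest read 1221. For Cacna1a the same array read 96.2, where no other uninjured array read below 399. The 72 h estimates of Scn8a and Cacna1a therefore depend on that sham. The same array gave the 72 h sham readings of 2228 for Kcnd2 and 2794 for Kcnma1. The 72 h estimates of those genes, the called fall of Kcnd2 included, depend on it as well. Of 11 voltage-gated potassium pores, 7 lay below 0 at 72 h and 1, Kcnd2, was called. Of 4 calcium pores, 2 lay below 0 and none was called. These counts of signs have no share of all genes beside them and are not by themselves a result about channel genes.

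Comparing injury at 72 h with all 10 uninjured mouse arrays together, in place of the 2 time-matched shams, 8 members fell and 1 rose (falls 21.1% beside 10.9% of all genes, and rises 2.63% beside 12.8%). Beside Cacna2d1, Kcnd2 and Scn1a the falls were then Scn8a (-0.98 ± 0.31), Kcnma1 (-0.91 ± 0.25), the AMPA-receptor partner Cacng2 (-0.57 ± 0.20), Kcnk2 (-0.33 ± 0.12) and Kcnab2 (-0.31 ± 0.09). That control group mixes times and naive mice.

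A list of 37 further genes of neuronal excitability, such as channel anchors, pumps and chloride transporters, was set beside the channels. In the mouse at 72 h, 3 of its 22 measured members fell and 1 rose, beside 5.68% and 9.86% of all genes. The falls were Fgf12, a sodium channel binding protein (-1.21), Cntn1, an axonal adhesion molecule (-0.80), and Ank3, the anchor of the axon initial segment (-0.63), and the rise was the sodium pump subunit Atp1b3 (0.47). At the other times 1 fell at 4 h, the spectrin Sptbn1 (-0.68). At 8 h Cntn1 and Sptbn1 (-0.52) fell and the ubiquitin ligase Nedd4l (0.73) rose, and at 24 h Cntn1 fell (-1.10).

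In the rat, few members passed the test at any time. None was called by limma at 30 min (0.0245% of all genes), 8 h (0.709%), 24 h (0.269%) or 21 d (0%), nor for the mean over times (2.3%). At an unadjusted p below 0.05 the counts were 3 at 30 min (3.23% of all genes), 4 at 8 h (8.24%), 4 at 24 h (4.89%), 0 at 21 d (1.22%) and 8 for the mean (10.8%). One member fell at 4 h (2.05% of all genes fell, 4.99% called) and 1 at 72 h (0.66% fell, 2.76% called). The signs leaned one way: over the times 52 of 65 members (80%) lay below 0, as did 52.9% of all genes tested, and the 8 members with an unadjusted p below 0.05 were all lower (12.3% of members, beside 4.11% of all genes lower at that level). The lowest of their p-values belonged to the N-type calcium pore Cacna1b (-0.29 ± 0.11). The mean over times includes the 30 min and 4 h differences, which hold the 4 arrays that stood apart. Its signs and unadjusted counts are given with all arrays only.

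Kcns1, a silent subunit that joins Kcnb pores and alters their gating, was the member that fell. At 72 h the injured rats read 47.3, 31.6 and 46.5, and the shams 319 and 228. All 3 injured rats lay below every other rat array, of which the lowest read 62.7. The difference was -2.70 ± 0.71 (limma adjusted p = 0.0331). Of the injured arrays 1 was under the signal floor of 32.3 and the others close to it, so the size depends on the floor, and with the floor at the 25th percentile it was -1.52 ± 0.64. At 24 h both groups were low, at 79.8, 121 and 67.3 after injury and 182 and 78 after sham. At 21 d the injured rats read 348, 153 and 419 and the shams 336 and 413, and the groups overlapped. The 72 h call was lost when either 72 h sham was left out (0.333 and 0.168), when the second or the third injured rat was (0.119 and 0.091), when only the 72 h arrays were fitted (0.126), and with that higher floor (0.232).

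Cacng1 fell at 4 h, where the injured rats read 220, 166 and 188 and the shams 278, 346, 756 and 799. The difference was -1.37 ± 0.40 (limma adjusted p = 0.0436). The higher pair of shams were the arrays that stood apart, and without the 4 such arrays the difference was -0.71 ± 0.42 with an adjusted p of 0.618. All 5 arrays of 24 h, injured and sham, read 890 to 1139, above every other rat array.

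At 72 h 39 of 65 members lay below 0 in injured rats and the other 26 did not, a count given without the share of all genes. The median difference of the 65 members was -0.15, beside 0.07 for all genes. By class the medians ran from -0.90 for the 4 potassium channel partners to 0.01 for the 10 inward rectifiers and 0.00 for the 8 sodium pores, with the lone sodium beta subunit at 1.78. At 24 h the offset was similar, with a median of -0.16 beside 0.00 and 69.2% of members below 0 beside 49.6% of all genes. At 72 h 11 members had an unadjusted p below 0.05, all lower (16.9%, beside 6.09% of all genes lower at that level). Leaving out the 4 arrays that stood apart, none of which is from 72 h, kept each 72 h value as it was and lowered the median within-group standard deviation from 0.57 to 0.41 (log2; 0.44 on the 72 h arrays alone). In that fit 9 of 65 members fell and none rose (13.8%, beside 3.89% of all genes that fell).

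The 9 came from every potassium class and from sodium and calcium channels. Among pores they were Kcns1, Scn2a, a main sodium pore of excitatory axons (-1.18 ± 0.34), Kcnt1, the sodium-activated potassium pore (-1.74 ± 0.48), Kcnh1, an ether-a-go-go potassium pore (-0.99 ± 0.30), Kcnj11, the pore of the ATP-sensitive channel (-0.92 ± 0.25), and Kcnk1, a two-pore channel (-0.83 ± 0.26). Among partners they were Kcnab3 (-1.95 ± 0.58) and Kcnab2 (-0.87 ± 0.21), cytoplasmic beta subunits of Kcna channels, and Cacna2d1 (-1.12 ± 0.32). With all arrays the adjusted p was 0.0605 for Kcnab2, 0.0664 for Kcnab3, 0.0814 for Kcnj11, 0.111 for Scn2a, 0.14 for Kcnt1 and 0.233 for Cacna2d1. These calls rested on single 72 h rats: without the first sham 0 members were called, without the second 2 (Kcns1 and Kcnab2), without the third injured rat 1 (Kcns1) and without the second 5. Without the first injured rat 14 were called, of which 12 fell. The share of all genes that fell was then 9.56%, beside 3.89% with every 72 h rat kept, so falls were more frequent among all genes too. That share was 1.98% without the second injured rat and 1% without the third. With either sham left out, which leaves 1 sham of 72 h, falls were less frequent among all genes too. The lost calls are therefore not particular to channel genes.

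The arrays behind them show how far the injured rats differed among themselves. Kcnab2 read 3614, 2773 and 1811 after injury, and 5273 and 4404 after sham. Cacna2d1 read 2100, 1084 and 1000 against 2851 and 2867, and Scn2a read 2380, 1009 and 655 against 2612 and 2667. In each of the 3 genes all injured rats lay below both shams, with the first injured rat nearest to them. Scn1a showed the same order (854, 553 and 329 against 1388 and 1484), with -1.42 ± 0.58 and an adjusted p of 0.217. The 2 shams of 72 h were also the highest rat arrays for Cacna2d1, since the other uninjured rats lay at or below 2058.

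**Figure D3:**
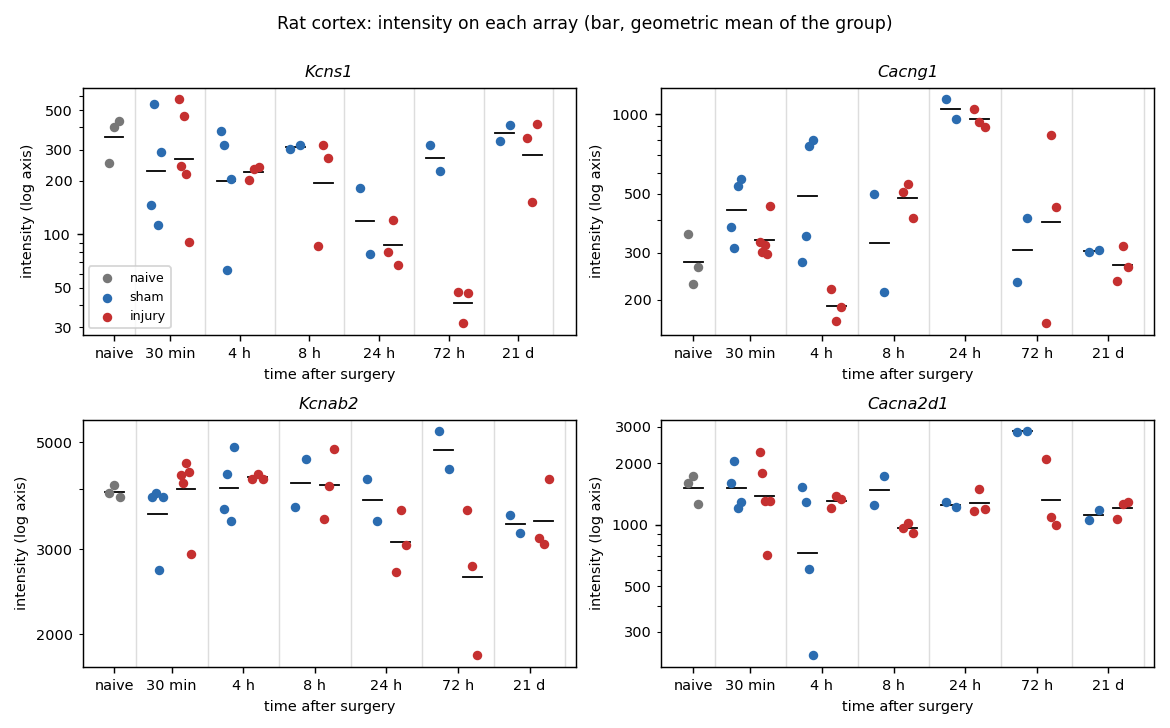
Intensity (log axis) of 4 rat channel genes on each array, by time after surgery, with naive rats at the left; points are single rats and bars are group geometric means. Kcns1 is lowest in the 3 injured rats of 72 h, Cacng1 is high on all 5 arrays of 24 h, and the 72 h shams of Cacna2d1 (2851 and 2867) lie above all other rats.

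Neuronal markers were lower in the same rats. The 8 on the array summed to 18736 to 40963 in the injured rats of 72 h and 61381 to 63581 in their shams, with no overlap. Those shams had the highest sums of any rat group, with naive rats at 52914 to 56060. The injured sum of 40963 lay inside the ranges of the 4 h shams (29040 to 47565) and 30 min shams (39732 to 51959), which include arrays that stood apart. Of the 8 neuronal markers, 3 fell (Map2, Nefm and Thy1), or 7 without the 4 arrays that stood apart, with a median difference of -1.19. The 8 microglia and macrophage markers tested had 3 rises (Aif1, C1qb and Lyz2). The 5 oligodendrocyte markers also summed lower without overlap, to 23543 to 32671 after injury and 40303 to 42380 after sham. None of them was called. Without the 4 arrays that stood apart, 1 of these 5 (Mobp) and 1 of 7 astrocyte markers (Aldoc) fell, and none of either list rose. Lower levels were thus not confined to the neuronal list. The part of these lists in the channel falls was not tested. Among 16 further excitability genes measured in the rat, 1 fell at 72 h, the neuronal potassium-chloride cotransporter Slc12a5 (-1.82).

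Against all uninjured rats as 1 group, in place of the time-matched shams, the 72 h rats had 10 members lower and none higher (lower 15.4%, beside 1.88% of all genes). They included Kcnd3, an A-type potassium pore, at -2.04 ± 0.42, which against the 72 h shams gave -0.72 ± 0.56. The titles of the 24 h arrays, injured and sham alike, carry an extra letter that the labels do not explain. The injured rats of 24 h had 3 members higher (7.75% of all genes) and 3 lower (3.67%) against that control group, and none against their own shams. The higher were Kcnb2, the sodium pore Scn11a (1.39 ± 0.44) and Cacng1 (1.21 ± 0.39), and the lower were Kcns1 (-1.50 ± 0.49), Kcnab3 (-1.42 ± 0.45) and the R-type calcium pore Cacna1e (-1.19 ± 0.39). The 24 h shams themselves read 1139 and 960 for Cacng1, above all other uninjured rats, and the cause was not tested.

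Rat promoters are shown for 3 of the genes that were lower at 72 h, a pore-modifying, a beta and an alpha2-delta subunit, to set their letters side by side. Each is the 250 bases before the RefSeq start in the GRCr8 build, read on the gene's own strand, with capitals for each GC box (GGGCGG on either strand). Kcns1 lies at chr3:173262347-173262596 (minus strand), Kcnab2 at chr5:168270761-168271010 (minus) and Cacna2d1 at chr4:20330148-20330397 (minus; the most upstream of its 3 listed starts).
Kcns1: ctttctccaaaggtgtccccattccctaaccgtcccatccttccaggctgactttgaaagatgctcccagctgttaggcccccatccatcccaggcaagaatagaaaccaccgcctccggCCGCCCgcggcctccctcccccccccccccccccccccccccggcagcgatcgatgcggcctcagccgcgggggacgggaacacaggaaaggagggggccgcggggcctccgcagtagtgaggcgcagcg
Kcnab2: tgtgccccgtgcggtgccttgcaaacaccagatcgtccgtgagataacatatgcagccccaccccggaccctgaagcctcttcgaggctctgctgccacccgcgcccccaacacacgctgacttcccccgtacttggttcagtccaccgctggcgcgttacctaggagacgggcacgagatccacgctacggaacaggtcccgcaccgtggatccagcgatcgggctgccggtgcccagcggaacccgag
Cacna2d1: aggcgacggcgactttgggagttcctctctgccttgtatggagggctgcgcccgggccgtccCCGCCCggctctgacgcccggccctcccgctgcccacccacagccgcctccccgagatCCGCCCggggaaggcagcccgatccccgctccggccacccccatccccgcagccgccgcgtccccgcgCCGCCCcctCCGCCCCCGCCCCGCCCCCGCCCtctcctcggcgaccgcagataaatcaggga

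Kcns1 held 1 GC box, Kcnab2 none and Cacna2d1 7, some of which overlap. RefSeq held promoters for 58 of the 78 rat members, 65 starts in all. A GC box was in 32 of the 65 (49.2%) and in 30.5% of 33469 rat promoters of that length, and the TATA box TATAAA in 3 (4.62%, beside 12.9%). The cAMP response element TGACGTCA was in none (1.59% of all promoters), and the letters TTCAGCACC, part of the site of the neuronal repressor REST, were in 1, Kcnh6 (0.305%). Member promoters had a median GC content of 60.8%, beside 51.2% for all, so a GC-rich motif was searched in unlike base composition.

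The species could be compared for 24 genes at 4 times. At 72 h 11 lay below 0 in both species (45.8%, beside 29.6% of the 2188 genes of the same symbol tested in both), 2 above 0 in both (8.33% beside 33.9%) and 11 on opposite sides (45.8% beside 36.5%). The counts below, above and on opposite sides were 9, 5 and 10 at 4 h, 6, 7 and 11 at 8 h, and 7, 3 and 14 at 24 h. As shares these were 37.5%, 20.8% and 41.7% at 4 h (beside 25%, 28.3% and 46.7% of all genes). At 8 h they were 25%, 29.2% and 45.8% (beside 27.8%, 28.1% and 44.1%). At 24 h they were 29.2%, 12.5% and 58.3% (beside 29.1%, 29.3% and 41.6%). The 4 h rat shams include arrays that stood apart. With all arrays, no member was called in the same direction in both species at any pair of times. Only Cacng1 at 4 h and Kcns1 at 72 h were called in the rat. Little overlap was therefore possible, and its absence shows no difference between species. Without the 4 rat arrays that stood apart, Cacna2d1 was called lower at 72 h in the rat, as it was in the mouse. Cacna2d1 gave -1.08 ± 0.34 in the mouse and -1.12 ± 0.47 in the rat, and Scn1a gave -1.18 ± 0.21 and -1.42 ± 0.58. Kcnd2 gave -1.19 ± 0.27 and -0.64 ± 0.49. The rat estimates of these 3 genes had wider errors and were not called with all arrays. Kcns1 gave -2.70 ± 0.71 in the rat and -0.31 ± 0.35 in the mouse. The difference between species was not tested.

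**Figure D4:**
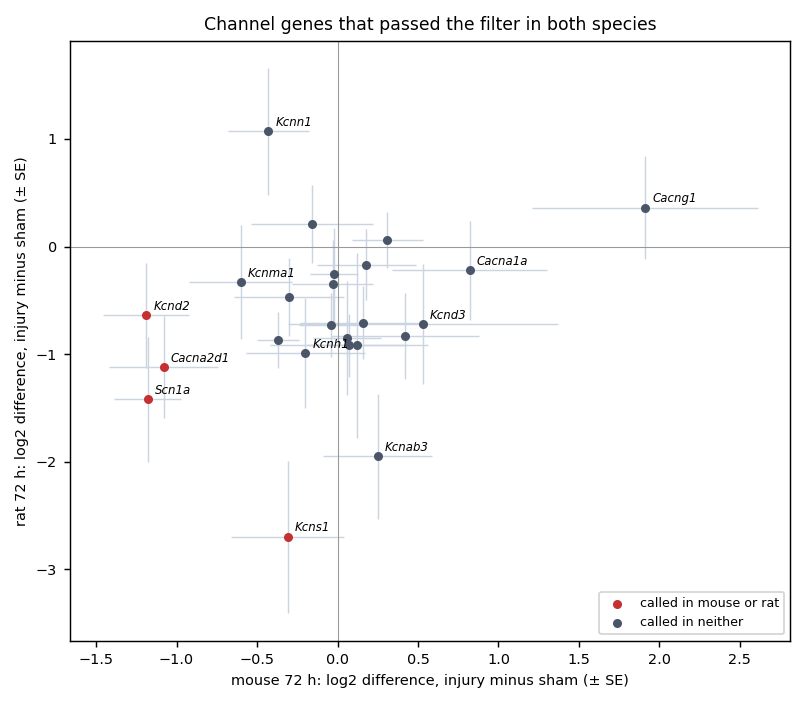
Log2 difference between injury and sham at 72 h in the mouse (horizontal) and rat (vertical) for the 24 channel genes past the filter in both, with SE bars; genes called by limma in either species are red. Cacna2d1, Scn1a and Kcnd2 lie at or below -0.64 on both axes, and 11 genes lie below 0 in both.

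Surgery without injury called no member. Shams against naive animals gave 0 of 38 in the mouse (0.11% of all genes) and 0 of 65 in the rat (0.0245%) by limma. At an unadjusted p below 0.05 there were 3 in the mouse (10.2% of all genes) and 6 in the rat (5.33%). For the genes that fell in injured mice the sham minus naive differences were 0.30 ± 0.29 for Cacna2d1, 0.42 ± 0.28 for Kcnma1, 0.17 ± 0.18 for Scn1a and 0.38 ± 0.23 for Kcnd2.

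Genes under the filter have no test. In the mouse they were 22, among them the sodium pores Scn3a, Scn7a, Scn9a and Scn10a and the inward rectifiers Kcnj2, Kcnj3 and Kcnj8. In the rat they were 13, among them Kcna2, Kcna3, Kcnj2, Kcnj6, Kcnj9 and Kcnn3. Channel paralogs share sequence, and signal from a close relative was not separated for any probe set.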

How the data were processed

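The authors deposited 1 value table per species, of linear intensity per probe set and array; the scanner software and scaling are not given in the sources used here. Probe sets were named through GEO's platform annotation (1 symbol each), and all 78 rat members matched RefSeq. Control probe sets (66 mouse, 59 rat) were left out. Intensities were floored at the 10th percentile (24.1 mouse, 32.3 rat), log2 transformed, and 1 probe set per gene was kept by highest mean. Genes above the 40th percentile (194, 203) on at least 3 arrays were tested, with limma 3.58.1 in R 4.3.3 (group means, trend; 13 and 26 residual degrees of freedom) and Benjamini-Hochberg adjustment over all genes of a contrast. The code was tested on simulated data.

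Members, class lists, marker lists and the rule for named genes (the called members with the largest changes, a panel of well-known subunits, and the highest-signal member of each class) were chosen with earlier results of these data known; Kcnab3, Kcnt1, Kcnh1, Kcnb2, Scn11a and Cacna1e in the rat and Cacng1 and Kcns1 in the mouse lie outside that rule and were named after their values were seen. Labels give rats as separate animals, but do not say whether mouse shams 1b, 1c and 1d are separate pools, so mouse p-values may measure technical spread. Labels do not say whether equal replicate numbers pair samples, and samples were analysed as unpaired. The 15 same-numbered rat injury and sham pairs had correlations of -0.41 to 0.36. At 30 min these were 0.36, 0.25, -0.41 and 0.36, which cannot settle whether those samples were paired. The number of arrays limits the precision. Alternatives covered normalization, floor, filter, probe set rule, blocks, control groups and single arrays. Figures were drawn with matplotlib 3.10.9.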

Additional observations from a re-analysis of the deposited data

Results flagged for a closer look

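Among 33 sets of rat values of 4 or 5 arrays examined, 4 had an array far from the others of its group, and chance gives about 1 in 20. On the injured array of 30 min that stood apart, Cacng1 read 450 (the other 4 arrays, 298 to 331) and Kcnab2 read 2938 (4125 to 4523). On the 30 min sham that stood apart, Kcnab2 read 2717 (3847 to 3916). Another injured rat of 30 min read 145 for the sodium beta subunit Scn2b, beside 12.5 to 39.4, which lie near or under the signal floor of 32.3.

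In the mouse the injury effect differed between 72 h and 4 h for Kcnd2 (-1.58, limma adjusted p = 0.0156) and Scn1a (-1.13, limma adjusted p = 0.0253). Over the alternatives these p-values ran from 0.00601 to 0.796 and from 0.00303 to 0.47, and both comparisons use the 4 h shams that carry pituitary transcripts.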

How the results depend on the processing

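None of the 17 gene and comparison pairs called changed direction under the alternatives run for it. Medians of marker lists could: against all uninjured arrays the mouse 72 h neuronal median went from 0.05 to -0.17. Counts of called members moved as follows. They are given in this and the next paragraph without the share of all genes called, so a larger count is not by itself a result about channel genes. Against all uninjured arrays the mouse counts were 1 at 4 h, 5 at 8 h, 4 at 24 h and 9 at 72 h, and the rat counts 0 at 4 h, 6 at 24 h and 10 at 72 h. In the mouse at 72 h that control group also raised calls among all genes. Falls went from 5.68% to 10.9% of all genes and rises from 9.86% to 12.8%. With the shams of a time averaged, the mouse gave 1 at 8 h, 0 at 24 h, 2 at 72 h and 0 for the change from 4 h to 72 h. Fitting only the compared groups gave 0 for the mouse at 24 h and the rat at 4 h and 72 h. Averaging probe sets gave 2 for the mouse at 24 h, 0 for its change from 4 h to 72 h, 3 for the rat at 72 h and 1 for rat sham against naive. With no filter the rat gave 0 at 4 h and 2 at 72 h, and with the 25th percentile as floor 0 at 72 h. The title letter as a block gave 0 at 4 h and 2 at 72 h, and so did the replicate block, which could be fitted for rats only because mouse shams share the number 1. The labels do not give the replicate number as a pairing. The title letter block could not be fitted for mouse 4 h, sham against naive, mean or changing effects. Without the 4 rat arrays that stood apart, the rat gave 0 at 4 h, 9 at 72 h and 1 for the mean over times.

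Leaving out 1 array at a time gave, in the mouse, 1 to 3 at 8 h, 0 to 1 at 24 h, 2 to 5 at 72 h, 4 to 9 over the times and 0 to 5 for the change from 4 h to 72 h. In the rat it gave 0 to 12 at 4 h (12 without the first sham, which leaves the 2 shams that stood apart among 3) and 0 to 4 at 72 h, or 0 to 14 at 72 h without the 4 arrays; other counts stayed at 0. With 2 shams at most times, an array left out removes a large share of the control. The alternative probe sets, and single arrays left out beside the 4, were chosen after seeing the data.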
